A study of Mus musculus with 15 samples.

Results

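The alveolar macrophage identity genes examined here are 10 genes, *Pparg*, *Bhlhe41*, *Fabp4*, *Fabp5*, *Siglecf*, *Marco*, *Itgax*, *Car4*, *Ear2* and *Krt79*, that are commonly used to tell alveolar macrophages from other macrophages. They were chosen by symbol, and all 10 were found among the 78317 gene identifiers of the count table. The table holds bulk RNA-seq of 15 wells of MH-S cells, a mouse alveolar macrophage line transformed with SV40, in 5 groups of 3 wells after 24 h. M0 cells received medium alone, M1 cells LPS at 1 µg/mL with IFN-γ at 20 ng/mL, M2 cells IL-4 at 20 ng/mL, and the last 2 groups CaP or SiO2 microrods at 0.1 mg/mL, rods with the same polymer coating around a calcium phosphate or a silica framework. The comparison asks which identity genes the line expressed at rest and which of them a stimulus lowered. All wells held 1 cell line at the same passage and each microrod well a separate particle batch, so p-values measure the spread between wells and particle batches and not between animals, lines or passages.

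Alveolar macrophages settle in the air space around birth, where GM-CSF from the epithelium and TGF-β induce PPARγ, the nuclear receptor that drives their differentiation. PPARγ in turn maintains the genes of lipid handling with which these cells clear surfactant, and a surface pattern of SiglecF and CD11c that marks them in the mouse lung. Cells taken out of the lung into culture are known to lose parts of this program.

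Levels are given in CPM, the read count of a gene scaled to the TMM-adjusted size of its library. Total counts ranged from 8459643 to 68750050 per library, and 3 counts, the floor below which a gene was treated as not measurable, corresponded to between 0.0429 and 0.395 CPM. The quasi-likelihood test of edgeR was applied to 16654 genes, and a gene was called when its Benjamini-Hochberg adjusted p-value was below 0.05 and its absolute log2 fold change above 0.5. Libraries that did not overlap with those of M0 were common. They were found for 32.2% of these genes in M1, 15.2% in M2, 17.4% with CaP and 18% with SiO2. The stimuli were visible in their usual markers, as *Il1b* averaged 411.3 CPM in M1 against 1.07 CPM in M0, *Nos2* 6.20 CPM in M1 against 0 CPM in M0, and *Arg1* 1550 CPM in M2 against 10.99 CPM in M0. *Retnla*, the other M2 marker, had 15 counts in M2 and 0 counts in all other groups. The number of called genes depended on single libraries. When each library was left out in turn, M1 against M0 gave 1511 to 3128 genes, beside 2342 with all libraries, and M1 against M2 gave 1764 to 4270, beside 2679. The lowest values were those without M1 replicate 3 and without M2 replicate 3, respectively, and the highest both those without M2 replicate 2. Against M0 it ranged from 316 to 1361 for M2, from 30 to 324 for CaP and from 8 to 50 for SiO2, beside 687, 109 and 44, with the lowest value without M0 replicate 1 and the highest without M2 replicate 2 in all 3 comparisons.

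At rest, MH-S cells expressed 3 of the 10 identity genes, *Fabp5*, *Itgax* and *Bhlhe41*, at a mean of at least 1 CPM and with more than 3 counts in each M0 library. *Fabp4*, *Pparg* and *Marco* were detected below this level, and *Siglecf*, *Car4*, *Ear2* and *Krt79* were at the floor, with at most 3 counts in every M0 library. None of the 5 identity genes tested was called lower than in M0 after any stimulus, and none was removed in the sense of being called lower and lying at the floor. Of all genes tested, 4.37% were called lower in M1, 2.13% in M2, 0.228% with CaP and 0.042% with SiO2. At these shares 0 of 5 does not set the identity genes apart. *Fabp4* and *Marco*, with 19 and 6 counts over the M0 libraries, had little room to fall, and the 5 genes not tested could not meet either rule. The M1 stimulus raised *Marco*, *Fabp4* and *Fabp5*. IL-4 raised *Fabp5*, a call that held in 19 of 25 alternatives. Neither microrod had a called effect on any of the 5 identity genes tested. Only 5 of the 10, *Fabp4*, *Fabp5*, *Itgax*, *Bhlhe41* and *Marco*, passed the filter on low counts and were tested, and *Fabp4* and *Marco* passed it through their M1 libraries, so that the number of members called is not a measure for the whole set. In bulk RNA, fewer cells that express a gene and less RNA per cell cannot be told apart.

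**Figure D1:**
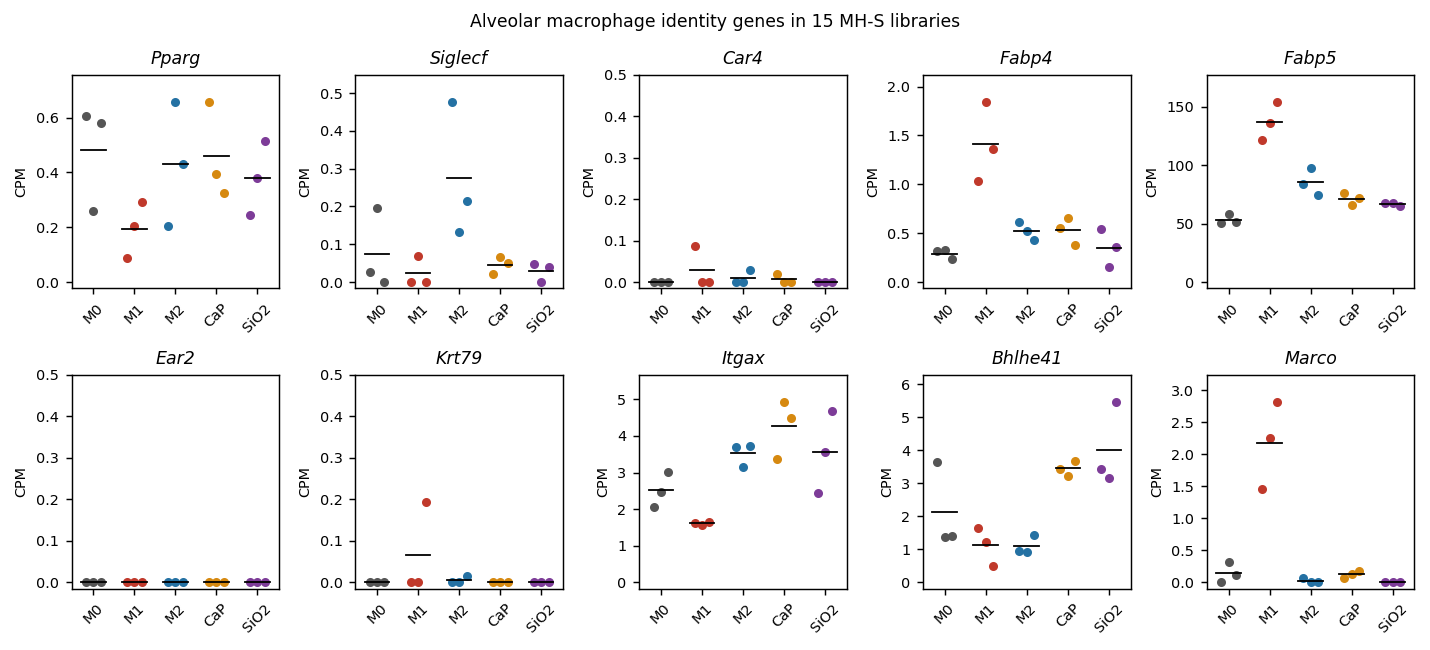
Level of each identity gene in CPM (vertical axes, linear and with a separate range per gene) in the 5 groups (horizontal axes), with 1 point per library and a line at the mean of 3 libraries. *Fabp5*, *Fabp4* and *Marco* lie highest in the M1 libraries, *Itgax* lowest in M1, and *Car4*, *Ear2* and *Krt79* at or near 0 in all groups.

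The label of the line was checked against general macrophage markers. Of 9 such markers, 8 were expressed in every group, and only *Mertk*, a receptor for apoptotic cells, was not. Per kilobase of transcript, *Lyz2*, which encodes lysozyme, had 1076 to 1600 CPM in the M0 libraries, *Cd68*, a lysosomal glycoprotein, had 906 to 1094 CPM, and *Csf1r*, the receptor for M-CSF, had 26.1 to 41.4 CPM. The 5 markers of lung epithelium and the 3 of T cells were at 0 counts in M0 and in no group above the floor. The cells thus carried the general macrophage markers, whereas the 10 identity genes were mostly at low levels or at the floor. Other genes associated with alveolar macrophages were mixed at rest, as 12 of 26 passed the filter on low counts. *Lgals3* and *Abcg1* averaged 806 and 405 CPM in M0, and *Ear1*, *Ear6* and *Ear10* 0 CPM.

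Compared on the scale of CPM per kilobase, which corrects for transcript length, *Fabp5* stood far above the other identity genes in M0, with 51.5 to 58.9 CPM per kilobase. *Itgax* followed with 0.508 to 0.744 and *Bhlhe41* with 0.223 to 0.597 CPM per kilobase. *Fabp4* had 0.259 to 0.363, *Pparg* 0.147 to 0.343, and *Marco* 0 to 0.169 CPM per kilobase. The ranges of the 3 libraries separated *Fabp5* from *Itgax* but no other neighbours in this order, since those of *Itgax* and *Bhlhe41*, of *Bhlhe41* and *Fabp4*, of *Fabp4* and *Pparg* and of *Pparg* and *Marco* overlapped. The order below *Fabp5* is therefore not resolved at this depth, and without M0 replicate 1 only 3 of the 6 genes kept their rank.

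**Figure D2:**
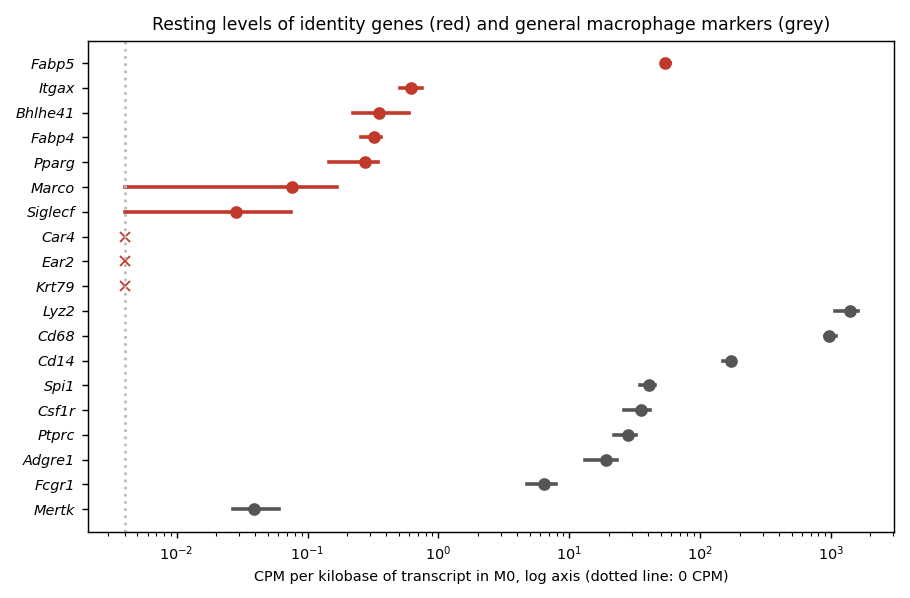
Resting level in M0 in CPM per kilobase of transcript (horizontal axis, logarithmic) of the 10 identity genes (red) and 9 general macrophage markers (grey), with a point at the mean and a line from the lowest to the highest of 3 libraries; crosses mark genes at 0 counts. *Fabp5*, at 51.5 to 58.9, is the only identity gene within the range of the grey markers other than *Mertk*.

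Of the 2 transcriptional regulators, *Pparg* (ENSMUSG00000000440) encodes PPARγ itself. It was counted 23, 4 and 5 times in the M0 libraries, which corresponds to 0.606, 0.260 and 0.579 CPM. In M1 it had 1, 3 and 3 counts, or 0.0860, 0.205 and 0.292 CPM. In M2 it had 0.205, 0.658 and 0.429 CPM, with CaP 0.656, 0.394 and 0.324 CPM, and with SiO2 0.245, 0.378 and 0.515 CPM. *Pparg* was thus at the floor in M1 alone, although the highest M1 library lay above the lowest M0 library, and the other groups overlapped with M0 throughout. The floor is set in counts and so depends on depth. It lay at 0.205 to 0.292 CPM in the M1 libraries and at 0.0790 CPM in M0 replicate 1, and M2 replicate 1 also had 3 counts of *Pparg*. It did not pass the filter. In a fit without the filter, added after seeing the data, its log2 fold change in M1 against M0 was -1.36 with an adjusted p of 0.416. The 7 counts in M1 against 32 in M0 give a ratio of 0.371 relative to library size, with an exact 95% interval of 0.138 to 0.856 that covers counting error only and not the spread between wells.

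*Bhlhe41* (ENSMUSG00000030256) encodes a basic helix-loop-helix repressor that, with its paralog *Bhlhe40*, maintains the identity and self-renewal of alveolar macrophages by silencing genes of other macrophage types. Its levels in the M0 libraries were 3.66, 1.37 and 1.39 CPM, so that replicate 1 stood apart from the other two. They were 1.63, 1.23 and 0.486 CPM in M1 and 0.955, 0.921 and 1.43 CPM in M2. With CaP they were 3.45, 3.22 and 3.69 CPM and with SiO2 3.43, 3.18 and 5.47 CPM. The microrod libraries were therefore all above M0 replicates 2 and 3 but overlapped with replicate 1, and the polarized libraries overlapped with M0 as well. None of the 4 differences from M0 was called in edgeR's test. The log2 fold changes were -1.07 ± 0.55 (SE) in M1 with an adjusted p of 0.151, -0.98 ± 0.51 in M2 with 0.247, 0.53 ± 0.45 with CaP with 0.5, and 0.77 ± 0.46 with SiO2 with 0.643. Without M0 replicate 1 the log2 fold changes were -0.29 in M1, -0.19 in M2, 1.31 with CaP and 1.56 with SiO2, so the size of each difference depended on this library, and none was called in that fit or in any other alternative run. *Bhlhe40* was the more abundant of the pair, with a mean of 22.3 ± 2.42 CPM in M0 (SD, n = 3), 58.0 ± 25.5 CPM with CaP and 56.2 ± 3.09 CPM with SiO2, and its changes with the rods, 1.38 ± 0.44 and 1.34 ± 0.44 on the log2 scale, had adjusted p-values of 0.0910 and 0.219 by edgeR and were not called.

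The most abundant identity gene was *Fabp5* (ENSMUSG00000027533), which encodes the epidermal fatty acid-binding protein, a cytosolic carrier of long-chain fatty acids. The M0 libraries had 50.8, 58.1 and 51.4 CPM and the M1 libraries 122.0, 135.8 and 154.5 CPM. In M2 the levels were 84.1, 97.9 and 74.8 CPM, with CaP 76.0, 65.6 and 71.6 CPM, and with SiO2 67.9, 67.9 and 65.2 CPM. All 12 libraries of the stimulated cells lay above all 3 M0 libraries, and the M1 libraries lay above all others. Of all genes tested, 32.2% in M1, 15.2% in M2, 17.4% with CaP and 18% with SiO2 did not overlap with M0. Against M0, *Fabp5* rose 2.57-fold in M1, a log2 fold change of 1.36 ± 0.19 (SE) with an adjusted p of 2.75e-05 in edgeR's test, and it was called in all 25 alternatives. In M2 it rose 1.60-fold, a log2 fold change of 0.68 ± 0.19 with an adjusted p of 0.0176, but this call was lost without M0 replicate 1 (adjusted p = 0.0831), without M0 replicate 3 (0.0758), without M2 replicate 1 (0.0543), without a filter (0.165) and in a model of the 6 compared libraries (0.282). With the microrods *Fabp5* was not called by edgeR, with log2 fold changes of 0.41 ± 0.19 for CaP (adjusted p = 0.207) and 0.33 ± 0.19 for SiO2 (adjusted p = 0.584). In the direct comparison, M1 was 0.69 ± 0.19 above M2 on the log2 scale with an adjusted p of 0.00500 by edgeR. This call was lost without a filter (log2 fold change 0.66, adjusted p = 0.0889), in a model of the 6 compared libraries (0.63, adjusted p = 0.102) and at a threshold of 1 on the log2 fold change. Over the 15 libraries, the genes most similar to *Fabp5* among 10727 candidates were *Plpp5*, a lipid phosphatase, and *Sqor*, the mitochondrial sulfide oxidoreductase, each with a Pearson correlation of 0.95 in log2 CPM. The points share libraries and depth, so the correlations are a description.

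*Fabp4* (ENSMUSG00000062515), the adipocyte-type fatty acid-binding protein and a classical PPARγ target, was close to the detection limit at rest, with 0.316, 0.325 and 0.232 CPM in M0 from 12, 5 and 2 counts. The M1 libraries had 1.03, 1.85 and 1.36 CPM, from 12, 27 and 14 counts. In M2 the values were 0.614, 0.526 and 0.429 CPM, with CaP 0.554, 0.658 and 0.374 CPM, and with SiO2 0.538, 0.151 and 0.357 CPM. M1 did not overlap with any other group, M2 and CaP also lay above all M0 libraries, and SiO2 overlapped with M0. Of all genes tested, 32.2% in M1, 15.2% in M2 and 17.4% with CaP did not overlap with M0. *Fabp4* passed the filter through its M1 libraries. The rise in M1 was 4.65-fold, a log2 fold change of 2.22 ± 0.45 (SE) with an adjusted p of 0.00154 by edgeR, and the call held in all 24 alternatives in which the gene could be tested. In M2, CaP and SiO2 the log2 fold changes against M0 were 0.66 ± 0.47, 0.72 ± 0.45 and 0.28 ± 0.50, with edgeR's adjusted p-values of 0.475, 0.400 and 0.945. *Fabp4* rose in M1 in libraries in which *Pparg* was at the floor, a floor that depends on depth, with *Pparg* levels that overlapped with M0.

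Among the surface receptors, *Marco* (ENSMUSG00000026390) encodes a class A scavenger receptor that binds unopsonized particles and bacteria. It had 0, 5 and 1 counts in the M0 libraries and 17, 33 and 29 counts in M1. M2 had 1, 0 and 0 counts, CaP 3, 2 and 7 counts, and SiO2 0 counts in each library. *Marco* was thus low in all groups but M1, where its levels were 1.46, 2.26 and 2.82 CPM and did not overlap with any other group. Of all genes tested, 32.2% did not overlap between M1 and M0 and 29.4% between M1 and M2. *Marco* passed the filter through its M1 libraries. The log2 fold change in M1 against M0 was 4.36 ± 1.00 (SE) with an adjusted p of 0.00107 by edgeR, and the 79 counts against 6 give a ratio of 22.3 with an exact 95% counting interval of 9.81 to 62.7. Since the fold rests on 6 counts in M0, it moved to 6.33 on the log2 scale without M0 replicate 2 and to 3.08 without M0 replicate 1, while the call held. Against M2, with its single count, the ratio was 199 with an exact interval of 34.7 to 7960 and the adjusted p of edgeR 0.000112. Neither microrod had a called effect on *Marco*. For CaP the log2 fold change was 0.19 ± 1.16 with an adjusted p of 0.945 and its sign changed between alternatives, and for SiO2, where no count was found, the adjusted p was 0.681. A count of 0 over the 3 SiO2 libraries allows a level of up to 0.0509 CPM, and the M0 libraries lay at 0, 0.325 and 0.116 CPM, on both sides of this limit. Of the other class A scavenger receptors, *Msr1* rose in M1 from 27.1 ± 5.44 to 77.4 ± 5.94 CPM (log2 fold change 1.52 ± 0.23 (SE), adjusted p = 6.7e-05 by edgeR) and *Colec12* was not called in M1, with 45.5 ± 4.49 CPM in M0 and 32.2 ± 3.32 CPM in M1.

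The region upstream of the *Marco* start site is shown because this gene had the largest called fold change among the members, and those of *Bhlhe41* and *Itgax* because these were expressed at rest and have windows in the RefSeq table for GRCm38.p6, a build other than that of the count table. The windows were taken from 250 bases before the start site up to the first annotated exon and are written on the strand of the gene. Matches to motifs in the letters CACGTG (the E-box that Bhlhe41 binds), GAGGAA (the core of the PU.1 motif), AGGTCA (the half-site of nuclear receptors) and TTCNNNGAA (a STAT site) and to the NF-κB site are in capitals. The windows lie at chr1:120505025-120505274 on the minus strand for *Marco*, at chr6:145865559-145865670 on the minus strand for *Bhlhe41* and at chr7:128129300-128129546 on the plus strand for *Itgax*.
Marco: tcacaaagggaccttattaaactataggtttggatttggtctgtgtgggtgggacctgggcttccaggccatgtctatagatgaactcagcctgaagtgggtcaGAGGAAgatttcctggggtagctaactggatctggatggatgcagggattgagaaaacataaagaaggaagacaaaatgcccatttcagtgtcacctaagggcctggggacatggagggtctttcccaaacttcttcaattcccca
Bhlhe41: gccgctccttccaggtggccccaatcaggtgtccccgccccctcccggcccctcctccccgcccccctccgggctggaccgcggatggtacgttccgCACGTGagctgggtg
Itgax: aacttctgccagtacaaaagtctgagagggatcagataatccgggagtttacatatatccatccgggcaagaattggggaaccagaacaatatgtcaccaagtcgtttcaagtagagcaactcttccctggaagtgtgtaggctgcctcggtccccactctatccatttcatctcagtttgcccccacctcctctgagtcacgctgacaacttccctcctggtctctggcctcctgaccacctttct
The *Marco* window holds 1 PU.1 core, 146 bases before the start site, and no match to the other motifs. The *Bhlhe41* window holds 1 E-box, 153 bases before the start site, which is the motif of its own product. The *Itgax* window holds no match to the 5 motifs. On both strands, a PU.1 core occurred in 23.3% and an E-box in 6.02% of the 32851 promoter windows of 250 bases, the half-site in 14.0%, the STAT site in 7.02% and the NF-κB site in 7.25%, so a single match is common and is given as a description. Windows were found for 8 of the 10 genes, among which *Pparg* has 3 start sites. Of the 2 windows with a half-site both were those of *Pparg*, and the PU.1 core was also found in 1 of the *Pparg* windows and in that of *Siglecf*, while the windows of *Car4* and *Krt79* each held an NF-κB site. *Fabp4* and *Fabp5* were not in the table.

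*Itgax* (ENSMUSG00000030789) encodes CD11c, the α chain of the integrin αXβ2, a receptor for complement-coated particles. The M0 libraries had 2.06, 2.47 and 3.01 CPM, whereas the M1 libraries had 1.63, 1.57 and 1.65 CPM. In M2 the levels were 3.69, 3.16 and 3.72 CPM, with CaP 3.38, 4.93 and 4.49 CPM, and with SiO2 2.45, 3.56 and 4.68 CPM. M1 was below and M2 and CaP were above all M0 libraries, and SiO2 overlapped with M0. Such a lack of overlap was found for 32.2% of all genes tested in M1, 15.2% in M2 and 17.4% with CaP. None of these differences from M0 passed edgeR's test, with log2 fold changes of -0.58 ± 0.36 (SE) in M1 (adjusted p = 0.248), 0.57 ± 0.32 in M2 (0.297), 0.80 ± 0.31 with CaP (0.167) and 0.57 ± 0.32 with SiO2 (0.616). The direct comparison of the polarized cells was called, with *Itgax* in M1 at 1.14 ± 0.35 below M2 on the log2 scale (log2 fold change -1.14, adjusted p = 0.0166 by edgeR). This call was lost without M1 replicate 1 (adjusted p = 0.0523), M1 replicate 2 (0.0639), M1 replicate 3 (0.0503) or M2 replicate 3 (0.0677), with log2 fold changes between -1.16 and -1.10. *Itgam*, which encodes CD11b, the α chain that alveolar macrophages normally carry at a low level, was at 33.2 ± 4.69 CPM in M0 (SD, n = 3) and at 16.8 ± 2.73 CPM with CaP, and it was not called against M0 in any group.

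*Siglecf* (ENSMUSG00000039013), the sialic acid-binding lectin that is the standard surface marker of mouse alveolar macrophages, had 1, 3 and 0 counts in M0. It had 0, 1 and 0 counts in M1, 1, 1 and 2 counts with CaP and 1, 0 and 1 counts with SiO2. Only in M2 was it above the floor, with 7, 1 and 15 counts or 0.478, 0.132 and 0.215 CPM. The lowest M2 library nevertheless lay below the highest M0 library at 0.195 CPM. The 23 counts in M2 against 4 in M0 correspond to a ratio of 3.87 with an exact 95% counting interval of 1.32 to 15.4. In the fit without the filter the log2 fold change was 1.97 with an adjusted p of 0.382 by edgeR, so *Siglecf* was not called. Its paralog *Siglece*, an inhibitory lectin, rose in M1 from 2.26 ± 1.04 to 21.1 ± 8.56 CPM (log2 fold change 3.35 ± 0.59 (SE), adjusted p = 0.000493 by edgeR).

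The remaining 3 genes were not measurably expressed. *Car4* (ENSMUSG00000000805), which encodes a membrane-bound carbonic anhydrase, had 0 counts in M0 and SiO2, 1 count in M1, 2 counts in M2 and 1 count with CaP. *Krt79* (ENSMUSG00000061397), a keratin whose transcript marks alveolar macrophages in the mouse, had 2 counts in 1 M1 library, 1 count in 1 M2 library and 0 counts elsewhere. *Ear2* (ENSMUSG00000072596), a ribonuclease of the eosinophil-associated family, had 0 counts in all 15 libraries. Its near-identical relatives *Ear1*, *Ear6*, *Ear10* and *Ear14* also had 0 counts, so reads of *Ear2* were not assigned to one of these copies. Over the 3 M0 libraries, a count of 0 allows a level of up to 0.0484 CPM.

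The M1 stimulus was the only one with more than 1 called member against M0. In M1, 3 of the 5 tested members were called higher, where 9.7% of all 16654 genes were called higher, and 0 were called lower, where 4.37% of all genes were called lower. Of those called higher, *Fabp4* and *Marco* passed the filter through their M1 libraries, so 3 of 5 cannot be read against the share over all genes. The same holds for both genes in M1 against M2. In M2, 1 member was called higher and 0 lower, with 4.13% of all genes called, 2% higher and 2.13% lower. With CaP and with SiO2 0 members were called by edgeR and also 0 by DESeq2, with 0.654% and 0.264% of all genes called. *Bhlhe41* would have been lower in both M1 and M2 at an unadjusted threshold of 0.05, with folds that depended on M0 replicate 1 as given above. At that threshold edgeR's test would also have passed 2 members with CaP, *Fabp5* and *Itgax*, and 1 with SiO2, *Fabp5*, each with a positive fold change. Between M1 and M2, 4 members were called, *Fabp4*, *Fabp5* and *Marco* higher and *Itgax* lower in M1, with 16.1% of all genes called, 10.6% higher and 5.46% lower, and 2 of these, *Fabp5* and *Marco*, remained called without M1 replicate 2 or without M2 replicate 3. Between CaP and SiO2 0 members were called by edgeR or DESeq2, with 0.018% of all genes called and 1 member, *Marco*, below an unadjusted 0.05, and the log2 difference of *Fabp5* was 0.09 ± 0.19 (SE), that of *Itgax* 0.23 ± 0.30 and that of *Bhlhe41* -0.24 ± 0.43. All comparisons with M0 share the same 3 control libraries.

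**Figure D3:**
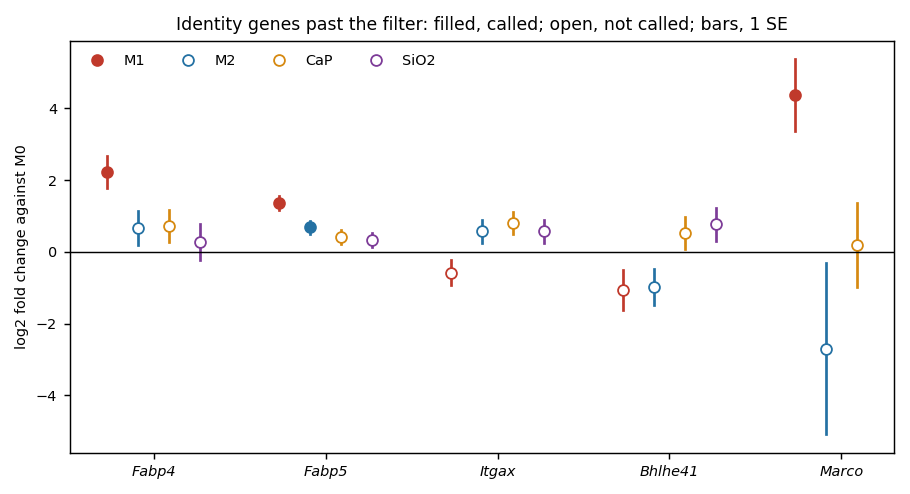
Log2 fold change against M0 (vertical axis) of the 5 identity genes that passed the filter (horizontal axis), with bars of 1 SE from edgeR's model of 15 libraries; filled points were called and open points were not. The filled points are *Fabp4*, *Fabp5* and *Marco* in M1 and *Fabp5* in M2, and *Marco* with SiO2 is not drawn because it had 0 counts there.

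Of 19 genes of signals that can induce *Pparg*, 17 of them of the GM-CSF and TGF-β pathways and the other two *Il4ra* and *Stat6* of the IL-4 pathway, 17 passed the filter and were tested, *Il4ra* and *Stat6* among them. The α chain of the GM-CSF receptor, *Csf2ra*, which is named outside the rule and after its values were seen, had 30.9 ± 10.6 CPM in M0 and 66.0 ± 30.1 CPM in M1 (SD, n = 3), and its change was not called (adjusted p = 0.126 by edgeR). In M1, 2 of the 17 were called higher and 3 lower, beside 9.7% and 4.37% of all genes tested. Of the 2, *Csf2* passed the filter through its M1 libraries, so 2 of 17 cannot be read against the share over all genes. The median log2 fold change of the 17 was -0.03 against -0.01 over all genes tested. The gene for GM-CSF itself, *Csf2*, had 1 count over the M0 libraries and 35 counts over the M1 libraries (adjusted p = 0.000661 by edgeR), *Jak2*, the kinase bound to the GM-CSF receptor, rose from 1.71 ± 0.788 to 5.90 ± 2.49 CPM, and *Tgfbr1*, the type I receptor for TGF-β, fell from 2.06 ± 0.182 to 0.755 ± 0.131 CPM. *Tgfbr1* was also the only gene of this list called in M2, at 0.813 ± 0.0208 CPM, and 0 were called with either microrod by edgeR, where 6 with CaP, *Stat6* included, and 1 with SiO2 had an unadjusted p below 0.05. Of all genes tested, 4.13% were called in M2, 0.654% with CaP and 0.264% with SiO2. The count in M1 was 2 without M1 replicate 2 and 3 without M0 replicate 1, M0 replicate 2 or M1 replicate 3, and the count in M2 was 0 without any M0 library, without M2 replicate 1 and without M2 replicate 3.

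Of 20 partners and known targets of PPARγ, 17 were tested. In M1, where *Fabp4* and *Fabp5* rose, 2 of them were called higher and 2 lower, beside 9.7% and 4.37% of all genes tested. The median log2 fold change of the 17 was 0.22 beside -0.01 over all genes tested. *Angptl4*, a secreted inhibitor of lipoprotein lipase, fell from 18.1 ± 2.95 to 7.29 ± 0.684 CPM (log2 fold change -1.29 ± 0.24 (SE), adjusted p = 0.000566 by edgeR), and *Acaa2*, an enzyme of mitochondrial fatty acid oxidation, fell from 75.1 ± 13.6 to 37.5 ± 1.93 CPM (adjusted p = 0.00168). *Scd1*, the stearoyl-CoA desaturase, rose from 6.08 ± 0.948 to 13.4 ± 1.48 CPM (adjusted p = 0.00214). In M2 only *Abca1*, a cholesterol exporter, was called, with a fall from 2.62 ± 0.606 to 0.993 ± 0.0802 CPM (adjusted p = 0.00862), and this call was lost without M0 replicate 1 or M2 replicate 3. With the microrods 0 of the 17 were called by edgeR, and 4 with CaP and 1 with SiO2 had an unadjusted p below 0.05. Over all genes tested, 4.13% were called in M2, 0.654% with CaP and 0.264% with SiO2.

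Of 26 other genes that are associated with alveolar macrophages, 12 passed the filter. In M2, 4 were called higher and 1 lower, led by *Hvcn1*, a proton channel, with 4 counts over the M0 and 156 over the M2 libraries, *Mrc1*, the mannose receptor, which rose from 1.85 ± 0.591 to 27.6 ± 2.68 CPM (log2 fold change 3.88 ± 0.35 (SE), adjusted p = 3.04e-06), and *Slc7a2*, an arginine transporter, which rose from 5.72 ± 0.313 to 47.7 ± 8.90 CPM (adjusted p = 8.94e-06 by edgeR). *Hvcn1* averaged 1.65 CPM in M2 against 0.108 CPM in M0 and 0.389 CPM in M1, and it passed the filter through its M2 libraries. The 4 of 12 called higher in M2 therefore cannot be read against the share over all genes. *Mrc1* and *Slc7a2* are also known as genes of IL-4-activated macrophages. In M1, 1 gene was called higher (*Slc7a2*, log2 fold change 2.06) and 1 lower, the cholesterol exporter *Abcg1* (log2 fold change -1.33), whose call was lost without M0 replicate 3 or M1 replicate 2. The medians over the 12 genes were -0.03 in M1 and 0.55 in M2 on the log2 scale, beside -0.01 and 0.07 over all genes tested. Of all genes tested, 9.7% were called higher and 4.37% lower in M1, and 2% higher and 2.13% lower in M2.

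With CaP, 2 of these 12 genes were called higher and 1 lower, beside 0.426% and 0.228% of all genes tested. The lists were chosen with earlier results of these data known, and the study had reported *Atp6v0d2* as raised by both rods. The counts with the rods are therefore a description and cannot be read against the shares over all genes. *Atp6v0d2*, the d2 subunit of the vacuolar proton pump, rose from 0.776 ± 0.298 to 14.3 ± 1.92 CPM (log2 fold change 4.29 ± 0.42 (SE), adjusted p = 2.01e-05 by edgeR), and *Lgals3*, which encodes galectin-3, rose from 806 ± 237 to 1900 ± 257 CPM (log2 fold change 1.24, adjusted p = 0.0450). *Mrc1* fell to 0.505 ± 0.191 CPM (log2 fold change -2.02, adjusted p = 0.0231). With SiO2 *Atp6v0d2* alone was called, at 4.48 ± 0.458 CPM (log2 fold change 2.61, adjusted p = 0.00545), beside 0.264% of all genes tested. The count with CaP was 1 without M0 replicate 1, M0 replicate 3 or CaP replicate 3 and 5 without M2 replicate 2, and that with SiO2 was 0 without M0 replicate 1. In M2 the count was 3 instead of 5 without M0 replicate 3, M2 replicate 1, M2 replicate 3, CaP replicate 2 or 3, or any 1 of the SiO2 libraries.

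Genes of interstitial and monocyte-derived macrophages, the types from which the identity genes set alveolar macrophages apart, passed the filter in 13 of 20 cases. With CaP, 0 were called higher and 5 lower by edgeR, beside 0.426% and 0.228% of all genes tested. At an unadjusted p below 0.05 the counts were 0 and 8, and the median log2 fold change was -0.99 beside 0.06 over all genes tested. The *C1qa* chain of the complement component C1q fell from 3.82 ± 2.29 to 0.477 ± 0.218 CPM (log2 fold change -3.15 ± 0.75 (SE), adjusted p = 0.0427), *C1qb* from 21.5 ± 7.16 to 3.49 ± 0.432 CPM (adjusted p = 0.000990), and the transcription factor *Maf* from 1.07 ± 0.373 to 0.207 ± 0.137 CPM (adjusted p = 0.0171 by edgeR). With SiO2, 2 were called lower, *C1qb* at 5.75 ± 1.29 CPM (adjusted p = 0.0191) and *Ccr2*, the receptor by which monocytes leave the blood, which fell from 15.04 ± 2.91 to 4.27 ± 0.542 CPM (adjusted p = 0.0184 by edgeR). Of all genes tested, 0.042% were called lower with SiO2. The count with CaP was 2 without M0 replicate 1 or CaP replicate 3 and 3 without CaP replicate 2. With SiO2 it was 1 without M0 replicate 1, M0 replicate 2 or SiO2 replicate 2 and 0 without M0 replicate 3, SiO2 replicate 1 or SiO2 replicate 3.

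The polarized cells moved this list in both directions. Of all genes tested, 9.7% were called higher and 4.37% lower in M1, and 2% higher and 2.13% lower in M2. In M1, 1 gene was called higher, *Cd14*, the co-receptor for LPS, from 281 ± 32.2 to 1403 ± 113 CPM (adjusted p = 9.35e-08 by edgeR), and 4 lower, among them *C1qa* (log2 fold change -3.40) and *C1qb* (-1.18). In M2, 4 were called higher and 2 lower. *Mgl2*, a lectin of IL-4-activated macrophages, rose from 2.26 ± 0.929 to 489 ± 82.7 CPM (log2 fold change 7.69 ± 0.36 (SE), adjusted p = 1.21e-08) and *C1qc* rose with a log2 fold change of 2.82 (adjusted p = 0.00118), whereas the fractalkine receptor *Cx3cr1* fell from 20.9 ± 1.71 to 2.64 ± 0.421 CPM (adjusted p = 0.000132 by edgeR). *C1qb* was thus called lower in M1, with CaP and with SiO2 and higher in M2.

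**Figure D4:**
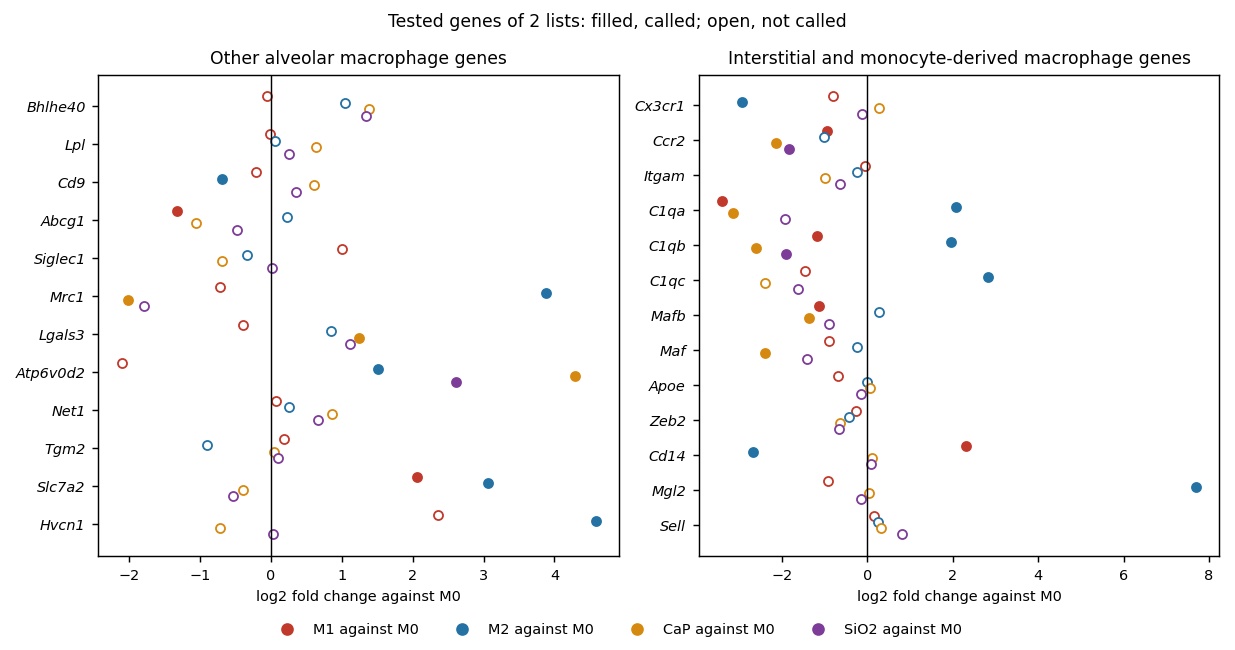
Log2 fold change against M0 (horizontal axes) of the tested genes of 2 lists (vertical axes), 12 other genes associated with alveolar macrophages on the left and 13 genes of interstitial and monocyte-derived macrophages on the right; filled points were called by edgeR and open points were not. On the right the filled points of CaP and SiO2 all lie below 0, and on the left *Atp6v0d2* is filled and above 0 for M2, CaP and SiO2.

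Among 30 paralogs of the identity genes, 9 passed the filter. In M1, 2 were called higher, *Siglece* and *Msr1* as described, and in M2 0 were called by edgeR, where 3 had an unadjusted p below 0.05. Of all genes tested, 9.7% were called higher in M1 and 4.13% were called in M2. With CaP 0.228% and with SiO2 0.042% of all genes were called lower. With CaP and SiO2, 1 was called lower in each, the integrin chain *Itgal* (CD11a), which fell from 4.50 ± 0.722 CPM in M0 to 1.81 ± 0.312 CPM with CaP (log2 fold change -1.31 ± 0.31 (SE), adjusted p = 0.0401) and to 1.58 ± 0.311 CPM with SiO2 (log2 fold change -1.48 ± 0.32, adjusted p = 0.0447 by edgeR). Markers of 3 other cell types were higher in M1 than in M0 without overlap of the libraries. Those of B cells and endothelium were also higher in M2 than in M0 without overlap. A lack of overlap, in either direction, was found for 32.2% of all genes tested in M1 and 15.2% in M2. The 4 B cell markers summed to 9.04 to 14.4 CPM in M1 against 0.463 to 1.08 CPM in M0. In M2 they summed to 1.13 to 1.71 CPM. *Cd79b* was the only one expressed, at 11.9 CPM in M1 and 1.27 CPM in M2, and 2 of the 4 were at 0 in M1. The 4 neutrophil markers summed to 0.778 to 1.504 CPM against 0.0790 to 0.325 CPM, with none expressed in M1, *S100a8* at 0.796 CPM and 2 of the 4 at 0. The 3 endothelial markers summed to 1.26 to 1.55 CPM in M1 and 0.921 to 1.77 CPM in M2 against 0.116 to 0.846 CPM in M0, with *Pecam1*, which macrophages can also express, as the only one expressed, at 1.20 CPM in M1 and 1.40 CPM in M2. The part of these markers in the M1 and M2 results was not tested.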

How the data were processed

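The authors made Smart-seq2 libraries, which amplify full-length cDNA without molecular identifiers, sequenced them as paired ends, processed the reads with the nf-core/rnaseq pipeline (STAR and Salmon, Ensembl annotation, build GRCm39 per the labels) and deposited whole-number counts per Ensembl gene for 15 libraries, without normalization. Since Salmon estimates counts, the whole numbers may have been rounded, and reads shared by near-identical genes were divided by Salmon. 0 columns were left unused. Symbols were given to 51487 of 78317 identifiers from GENCODE, transcript length was that of the basic transcript with the longest coding sequence, and promoter windows came from RefSeq.

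The analysis used edgeR 4.0.16 in R 4.3.3 (filterByExpr by group, TMM, quasi-likelihood test in 1 model of 15 libraries, no replicate term, Benjamini-Hochberg adjustment) and, as an alternative, DESeq2 1.42.0. The fold thresholds follow the study. The test was checked on simulated counts with known changes. Totals of 8459643 to 68750050 counts set the precision, and intervals and floors cover counting error only. With 3 against 3 libraries an exact two-sided permutation test cannot go below p = 0.1, so p-values come from models across all genes. Replicate libraries differed by more than sampling noise in all 15 pairs. Same-numbered libraries of M1 and M0 deviated together from their group means (correlations of 0.29, 0.27 and 0.21), and in no other comparison were all 3 correlations above 0.1. Alternatives were DESeq2, its size factors, other filters, a replicate block, other libraries in the model, other fold thresholds, thinned counts and leaving out each library. The legacy quasi-likelihood, tests of members without the filter, merged exon length and leave-one-out counts of the lists were added after seeing the data. The members, the lists and the tests were chosen with earlier results of these data known. Named are all 10 members, up to 3 genes with the largest fold change among those called per list and comparison, paralogs of at least 5 CPM in M0, the 2 genes most similar to a member of at least 5 CPM in some group, and marker genes.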

Additional observations from a re-analysis of the deposited data

How the results depend on the processing

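The 3 members called in M1 against M0 were also called under the replicate block, where 3 members and 2121 genes were called, and the block changed no call of a member in any comparison; it lowered the genes called from 109 to 59 for CaP and from 44 to 19 for SiO2. With at least 10 counts in every library, 1 member was called in M1 against M0 and 2 in M1 against M2, because *Fabp4* and *Marco* were then not tested. The 1 member called in M2 against M0 became 0 without a filter, with only the 6 libraries compared and at a log2 fold change above 1. Leaving out 1 library gave 0 to 1 members in M2 against M0 and 2 to 4 in M1 against M2. For the lists against M0 it gave 1 to 3 (M1), 3 to 7 (M2), 1 to 5 (CaP) and 0 to 1 (SiO2) called other alveolar macrophage genes, 2 to 6 (CaP) and 0 to 2 (SiO2) interstitial genes, 2 to 5 (M1) and 0 to 1 (M2) genes of the inputs to *Pparg*, and 0 to 1 PPARγ targets in M2.

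At rest 1 member was expressed at a mean of at least 5 CPM and 6 when more than 3 counts in 1 M0 library sufficed. The order per kilobase kept 3 of 6 ranks with merged exon length and 3 to 6 without 1 M0 library. Log2 fold changes that turned were those of *Marco* with CaP against M0 (-0.14 by DESeq2, -0.93 thinned, -1.08 to 2.17 leaving out 1 library), *Fabp4* with CaP against SiO2 (-0.01 thinned) and SiO2 against M0 (-0.11 to 0.52 leaving out 1 library), and *Bhlhe41* in M1 against M2 (-0.42 to 0.27) and CaP against SiO2 (-0.37 to 0.06); none was called and the cause was not tested.

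Without a filter the genes called rose to 1141 (M2), 968 (CaP) and 205 (SiO2) against M0, 4407 for M1 against M2 and 104 for CaP against SiO2. With only the compared libraries they were 98 (M2), 7 (CaP) and 1 (SiO2) against M0 and 1377 for M1 against M2. DESeq2 called 461 (CaP) and 130 (SiO2) against M0 and 17 for CaP against SiO2. Other falls by over 1.5 times were 457 (M2), 64 (CaP) and 27 (SiO2) thinned, 59 (CaP) with the legacy quasi-likelihood, and 68 (CaP) and 10 (SiO2) in the model of 9 libraries. CaP against SiO2, with 3 genes called, gave 5 thinned. The filter left 5 of the 10 members out of the test; without it 9 could be fitted, on the few counts given for each.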
